A study of Arabidopsis thaliana with 24 samples.

Results

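The bte1 hid1 double mutant of Arabidopsis thaliana was set against wild type seedlings by RNA sequencing. The comparison rests on the 3 libraries labelled bte1 hid1 and the 3 labelled WT (ecotype Col-0), which are 6 of the 24 libraries of the series. All annotated genes with enough reads were tested, 21897 in number. The hid1 and bte1 single mutants, with 3 libraries each, are given beside them, since every double mutant plant carries both single mutations. Whole seedlings were harvested after 9 days under continuous white light, and poly(A) RNA was sequenced. The labels call the replicates biological and do not say whether seedlings were pooled, nor what kind of allele bte1 or hid1 is.

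HID1 is a noncoding RNA gene known as a positive regulator of light responses in seedlings. The title of the series ties the mutants to the DREAM complex and to WDR5a. DREAM joins E2F and DP factors, the retinoblastoma protein RBR1, MYB3R proteins and a core of further subunits, and it is known for repressing genes of the cell cycle outside the phase in which they are needed. WDR5a is a subunit of the COMPASS-type complexes that methylate lysine 4 of histone H3, a mark of transcribed genes. Which gene bte1 disrupts is not named in the labels, and no gene of that name is in the reference annotation, so only the hid1 genotype could be checked.

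HID1 had 0 reads in each of the 3 bte1 hid1 libraries and in each of the 3 hid1 libraries. It was at 5.37, 7.06 and 8.59 CPM (counts scaled to the normalised library size) in bte1 and at 6.84, 9.67 and 9.32 CPM in WT. The 591 reads of the WT libraries put the level in bte1 hid1 at least 196-fold lower, a bound that sets 3 reads, summed over its libraries, as the least that could be seen and covers counting error only. The features AT2G35744, AT2G35747 and AT2G35750 also had 0 reads in bte1 hid1 and in hid1, against 366, 400 and 691 reads over the WT libraries. These loci follow each other closely by number, and both bte1 hid1 and hid1 lacked reads from all of them. AT2G35747 and AT2G35750 share 80 bases in the reference. Other features of nearby number were higher in bte1 hid1 than in WT. AT2G35760 averaged 31.3 CPM in bte1 hid1, 33.8 CPM in hid1, 11.1 CPM in bte1 and 9.22 CPM in WT. AT2G35742 was at 11.2, 12.8 and 2.2 CPM in bte1 hid1 and at 0.252, 0.72 and 0.35 CPM in WT. Features named by locus number here and below, other than members of the DREAM and E2F list, were chosen after their values were seen.

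Summed levels of cell type markers were used to check the labelled material. Of 4 leaf mesophyll markers, 5 root markers and 3 guard cell markers, none was at 0 in either genotype. Both pollen markers, VGD1 and PRF5, were at 0 in bte1 hid1 and in WT, and the shoot meristem gene WUS was at 0 in both. Of 4 flower organ markers, a tissue not among those sampled, none was at 0 in either genotype. They summed to between 4.56 and 8.62 CPM in bte1 hid1 and between 6.91 and 12.7 CPM in WT. The 8 seed storage markers summed to between 0.308 and 0.559 CPM in bte1 hid1, between 1.04 and 85.9 CPM in hid1, between 0.232 and 0.492 CPM in bte1 and between 0.126 and 0.831 CPM in WT. In hid1 the sums were 1.04 CPM in replicate 1, 85.9 CPM in replicate 2 and 12.9 CPM in replicate 3.

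Against WT, 434 genes were higher and 92 lower in bte1 hid1 at an adjusted p under 0.05 (edgeR quasi-likelihood test, Benjamini-Hochberg), which is 2.4% of the genes tested, with 1.98% higher and 0.42% lower. A gene that passed this test is called below. All 526 called genes had libraries that did not overlap between the genotypes, a property that 18.8% of all genes tested share. Most changes were under 2-fold: 117 of the called genes were at least 2-fold higher and 28 at least 2-fold lower, and 224 differed by less than 1.5-fold. The number called lower was the less stable: it was 49 without bte1 hid1 replicate 1, 56 without its replicate 2 or 3, 54 without WT replicate 1, 57 without WT replicate 3 and 68 without WT replicate 2. The median log2 change over all genes tested was -0.0058. Of the genes called higher, 405 are annotated as protein coding, 8 as pseudogenes and 5 as transcribed pseudogenes, and of the lower ones 82 are protein coding. Mean WT levels under 1 CPM were found for 13.6% of the genes called higher, for 5.43% of those called lower and for 10.3% of all genes tested.

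**Figure D1:**
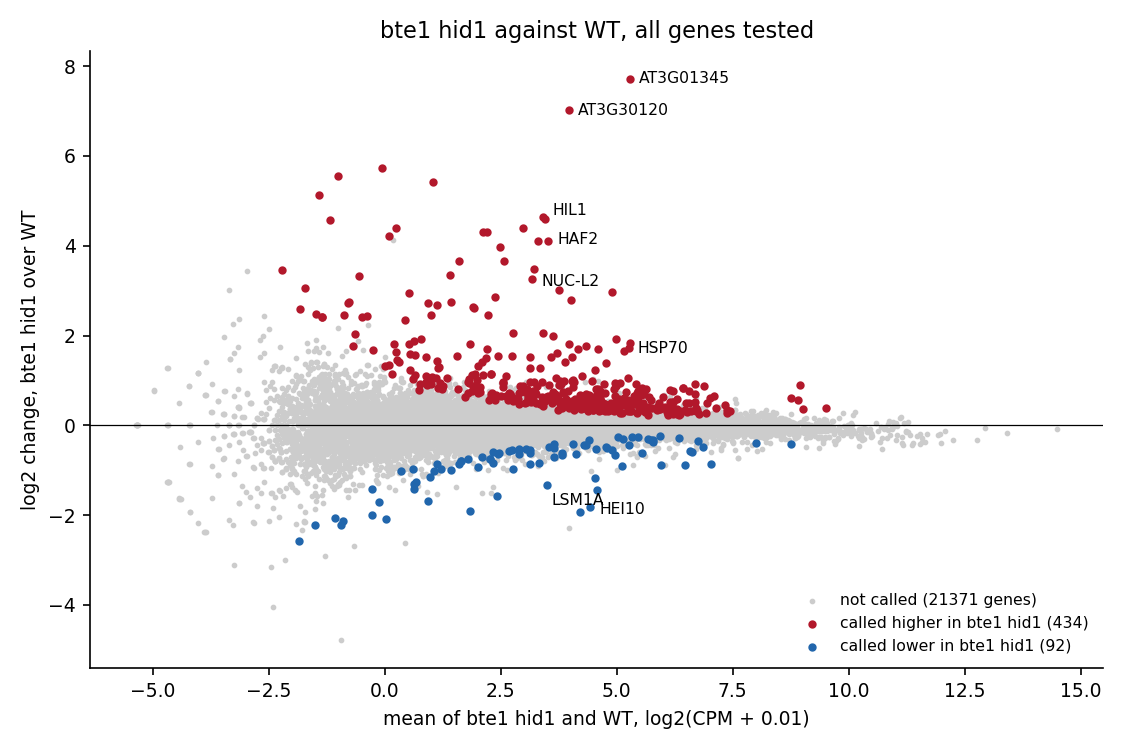
Log2 change in bte1 hid1 over WT for each gene tested, against its mean level in the 2 genotypes on a log2 scale, with genes called higher in red, called lower in blue and not called in grey. Genes called higher (434) outnumber those called lower (92); 10 called genes without a read in 1 genotype are not drawn.

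The largest rises at appreciable levels were in loci without a gene name. AT3G01345, an uncharacterised protein gene, was at 53.2, 82.9 and 96.7 CPM in bte1 hid1, at 1.47, 4.15 and 2.98 CPM in hid1, at 0.313, 1.02 and 0.389 CPM in bte1 and at 0.462, 0.135 and 0.481 CPM in WT. Its log2 change against WT was 7.72 (SE 0.39, edgeR adjusted p = 3.74e-11), and it was also called higher than in hid1 (log2 4.76, SE 0.30) and than in bte1 (log2 7.08, SE 0.37). No hid1, bte1 or WT library came near the double mutant's lowest value. AT3G30120, annotated as a pseudogene of a Mediator subunit, was at 28.5, 31.2 and 33.0 CPM in bte1 hid1, against 0.168, 0.315 and 0.219 CPM in WT. Here bte1 was as high, at 30.2, 30.1 and 25.8 CPM, and hid1 lay at 1.26, 0.699 and 1.15 CPM. AT5G59230, annotated as a transcription factor-like protein, had 427 reads over the bte1 hid1 libraries and 0 over the WT libraries, at least 143-fold higher against the 3-read floor. AT5G43800.1, whose locus is annotated as a pseudogene, went the other way, with 0 reads in bte1 hid1 against 111, 48 and 150 reads in WT, at least 102-fold lower. In bte1 there were none either, and hid1 was at 0, 0 and 0.209 CPM. Among the genotypes compared here, reads were thus found almost only in WT. With DESeq2 that last fall was not called (adjusted p = 0.654).

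Among genes with a symbol, the 12 largest rises included 2 subunits of the general transcription machinery, HAF2 and TAF4B. HAF2, a histone acetyltransferase subunit of TFIID, the complex that places RNA polymerase II at promoters, was at 19.7, 22.7 and 22.8 CPM in bte1 hid1, at 2.04, 1.88 and 2.04 CPM in hid1, at 18.1, 19.8 and 21.0 CPM in bte1 and at 0.966, 1.75 and 1.09 CPM in WT. All 3 double mutant libraries were far above WT and within the reach of bte1, and the log2 change against WT was 4.096 (SE 0.19, edgeR adjusted p = 1.11e-13). TAF4B, another TFIID subunit, was at 8.18, 8.35 and 7.02 CPM in bte1 hid1 against 1.55, 1.30 and 1.40 CPM in WT, a log2 change of 2.46 (SE 0.26). Further members of the TFIID list, which holds no Mediator subunit, rose less: TBP2, a TATA-binding protein, by 0.46 (SE 0.08) and TAF2 by 0.39 (SE 0.06). These 4 were the only called members of the 21 tested, where 1.98% of all genes were called higher, with a median log2 change of 0.08 over the list. TAF4B shares 867 bases with AT1G27710 in the reference and TBP2 shares 278 with its neighbour, and the strand used in counting is not given in the sources used here, so reads of such pairs cannot be told apart.

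NUC-L2, the lesser of the 2 nucleolins, nucleolar proteins of ribosomal RNA transcription, was at 17.2, 16.7 and 14.9 CPM in bte1 hid1, at 8.97, 10.6 and 10.2 CPM in hid1, at 13.3, 10.3 and 10.3 CPM in bte1 and at 1.43, 1.93 and 1.71 CPM in WT. Both single mutants stood between the double mutant and WT. The change against WT was 3.26 on the log2 scale (SE 0.20, edgeR adjusted p = 2.12e-11), and against hid1 it was 0.71 (SE 0.17, edgeR adjusted p = 0.00895). Against bte1 the difference of 0.52 (SE 0.17) was not called. The other called member of the 15 nucleolus and ribosome biogenesis genes was TOZ, a nucleolar protein of ribosome assembly, at 0.38 (SE 0.08). Both rose, where 1.98% of all genes were called higher. The call of TOZ was lost without WT replicate 3 (edgeR adjusted p = 0.108) or bte1 hid1 replicate 2 (0.068).

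ATX1, a trithorax-type methyltransferase of histone H3 lysine 4, was at 28.1, 26.1 and 23.2 CPM in bte1 hid1, at 13.05, 12.6 and 13.2 CPM in hid1, at 26.5, 22.1 and 25.3 CPM in bte1 and at 11.8, 12.1 and 12.3 CPM in WT. The double mutant and bte1 lay above, hid1 and WT below, without overlap. Its log2 change against WT was 1.098 (SE 0.09, edgeR adjusted p = 1.42e-08). It was the only called member among 19 genes of H3K4 methylation, whose median change was 0.05, where 1.98% of all genes were called higher. None of 13 Polycomb group genes, a group that includes those placing the opposing mark, was called, and none reached an unadjusted p under 0.05. Their log2 changes lay between -0.20 and 0.04.

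The remaining large rises were in genes of unrelated roles. AAS, an aromatic aldehyde synthase, was at 58.0, 60.2 and 63.3 CPM in bte1 hid1 against 15.6, 14.8 and 20.4 CPM in WT (log2 1.84, SE 0.11). HSP70, a heat-inducible cytosolic chaperone, was at 59.9, 59.5 and 55.9 CPM in bte1 hid1 against 15.7, 18.9 and 18.7 CPM in WT (log2 1.72, SE 0.08). PAI1, an isomerase of tryptophan synthesis, was at 40.8, 36.6 and 32.8 CPM in bte1 hid1 against 12.4, 10.3 and 10.99 CPM in WT (log2 1.71, SE 0.10). Each of these had all its double mutant libraries above all WT libraries, as did ABCA7, an ABC transporter (log2 1.82, SE 0.10), RABH1a, a Golgi small GTPase (2.72, SE 0.26), and RPA, which is here ROOT AND POLLEN ARFGAP and not the replication protein of that name (2.61, SE 0.25). Averages in bte1 hid1 and in bte1 differed by 0.19 or less on the log2 scale, with none called, for HAF2, TAF4B, AAS, ABCA7, HSP70, PAI1, RABH1a and RPA, while hid1 was called lower than the double mutant for all of these. MAC5C, a splicing-complex protein, was near the detection limit at 1.58, 1.07 and 1.16 CPM in bte1 hid1 against 0.336, 0.495 and 0.350 CPM in WT. Its call was lost without WT replicate 1, WT replicate 3 or bte1 hid1 replicate 1 (edgeR adjusted p up to 0.118).

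**Figure D2:**
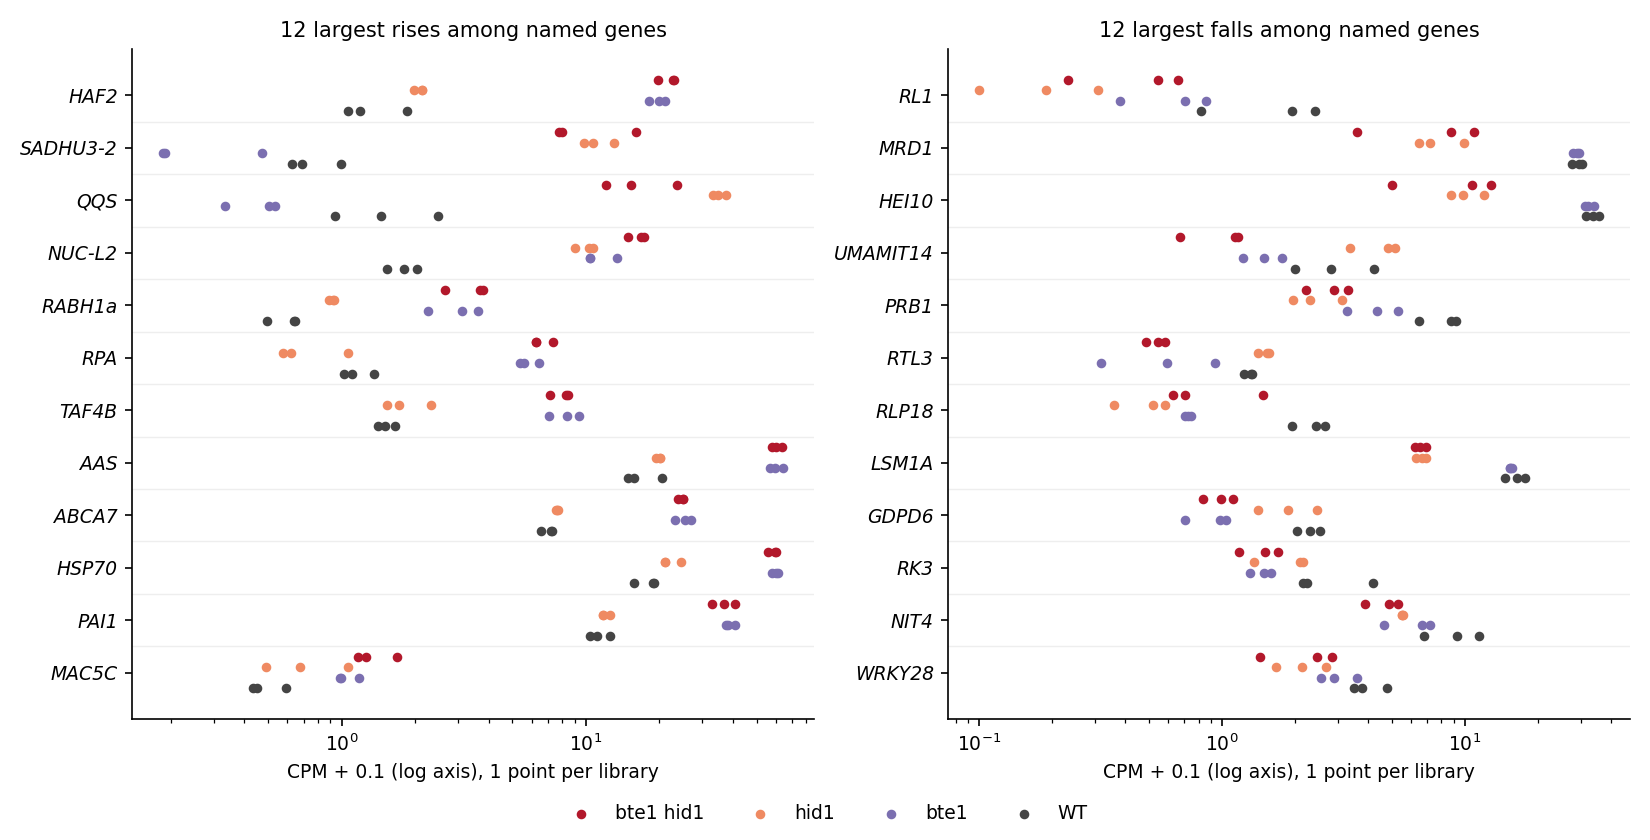
Level in each library, as CPM plus 0.1 on a log axis, of the 12 largest rises and the 12 largest falls among symbol-bearing genes in bte1 hid1 against WT, with the 4 genotypes drawn one above the other in each row. For HAF2, TAF4B, AAS, ABCA7, HSP70 and PAI1 the bte1 hid1 points lie with bte1 and apart from hid1 and WT, whereas for LSM1A, HEI10 and MRD1 they lie with hid1.

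QQS and SADHU3-2 rose by large amounts with another order of the genotypes. QQS, an Arabidopsis-specific gene of starch content known for epigenetic variation between accessions, was at 12, 15.2 and 23.63 CPM in bte1 hid1, at 37.5, 34.6 and 33.2 CPM in hid1, at 0.403, 0.232 and 0.432 CPM in bte1 and at 0.840, 2.38 and 1.36 CPM in WT. The double mutant was above WT (log2 3.48, SE 0.36) and bte1 (5.54, SE 0.45) and below hid1 (-1.05, SE 0.29, edgeR adjusted p = 0.0299). SADHU3-2, a non-coding retroelement that is methylated and silent in some accessions, was at 7.91, 7.69 and 15.9 CPM in bte1 hid1, at 10.6, 12.97 and 9.77 CPM in hid1, at 0.0895, 0.372 and 0.0864 CPM in bte1 and at 0.588, 0.899 and 0.525 CPM in WT. Double mutant and hid1 libraries overlapped, and both lay above the other 2 genotypes. MIR843, a microRNA gene, had 62 reads in bte1 hid1 and 0 in WT, at least 20.8-fold higher, and its levels were 0.607, 0.611 and 0.679 CPM in hid1 and 0 in bte1. The transcribed pseudogene AT3G48058, next to it by number, had the same order. It averaged 0.832 CPM in bte1 hid1, 0.7865 CPM in hid1, 0.0144 CPM in bte1 and 0.0296 CPM in WT. Whether reads of both features come from a shared transcript was not tested.

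Falls were fewer, and the 92 genes called lower had a median WT level of 10.5 CPM, against 12.6 CPM for those called higher. LSM1A, a subunit of the complex that activates mRNA decapping, was at 6.82, 6.13 and 6.41 CPM in bte1 hid1, at 6.59, 6.20 and 6.79 CPM in hid1, at 15.3, 15.2 and 15.5 CPM in bte1 and at 16.3, 14.6 and 17.5 CPM in WT. The log2 change against WT was -1.32 (SE 0.11, edgeR adjusted p = 6.06e-09), and both bte1 hid1 and hid1 were low. AT1G19115, the neighbour of LSM1A in the annotation, rose to 2.37, 2.44 and 1.16 CPM in bte1 hid1, against 0.084, 0.180 and 0.0438 CPM in WT, and was likewise high in hid1. HEI10, a protein of meiotic crossovers, was at 12.8, 4.89 and 10.6 CPM in bte1 hid1, at 8.63, 9.70 and 11.9 CPM in hid1, at 32.0, 31.1 and 33.9 CPM in bte1 and at 33.6, 31.3 and 35.5 CPM in WT. MRD1 fell with it (log2 -1.92, SE 0.32); the 2 genes share 1446 bases, so their reads cannot be told apart. In a fit on the bte1 hid1 and WT libraries alone neither was called (edgeR adjusted p = 0.0766 for HEI10 and 0.104 for MRD1).

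PRB1, a pathogenesis-related protein, was at 2.11, 3.20 and 2.80 CPM in bte1 hid1 against 8.65, 6.39 and 9.06 CPM in WT (log2 -1.57, SE 0.23, edgeR adjusted p = 6.56e-05). The amino acid transporter UMAMIT14 fell by 1.69 on the log2 scale (SE 0.38), with 0.572, 1.07 and 1.03 CPM in bte1 hid1 against 1.89, 2.70 and 4.11 CPM in WT. The other named falls were of RL1, a MYB-related factor (-2.08), RTL3, an RNase III-like protein (-1.43), RLP18, annotated as a receptor-like pseudogene (-1.42), GDPD6, a phosphodiesterase (-1.31), RK3, a receptor kinase (-1.02), NIT4, a nitrilase (-0.98), and WRKY28, a transcription factor (-0.87). These 7 were below 12 CPM in each library, and their edgeR adjusted p lay between 0.01295 and 0.0489. None of the 7 kept its call under every omission of 1 library: RTL3 and GDPD6 lost it under all 6, WRKY28 under all but that of bte1 hid1 replicate 1 (edgeR adjusted p up to 0.314), RL1 under 4 (up to 0.191), RK3 under 4 (up to 0.346), NIT4 under 4 (up to 0.118) and RLP18 under 3 (up to 0.109). UMAMIT14 lost it without WT replicate 3 (0.103) or bte1 hid1 replicate 1 (0.0882).

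Several of the risers are the lesser-expressed member of a gene family, which the deposited FPKM values (reads scaled to gene length and library size), comparable between genes of different length, show side by side. HAF2 averaged 4.09 ± 0.335 FPKM in bte1 hid1 and 0.204 ± 0.0675 FPKM in WT (SD, n = 3 each), whereas its paralog HAF01 was at 14.15 ± 0.575 FPKM in bte1 hid1 and 12.8 ± 0.446 FPKM in WT and was not called (log2 change of counts 0.09, SE 0.07). HAF2 thus made up 22.4% of the summed FPKM of the pair in bte1 hid1 and 1.57% in WT. TAF4B averaged 3.5 FPKM in bte1 hid1 and 0.613 FPKM in WT beside TAF4 at 22.5 FPKM in bte1 hid1 and 21.1 FPKM in WT, and NUC-L2 averaged 7.69 FPKM in bte1 hid1 and 0.792 FPKM in WT beside NUC-L1 at 150.8 FPKM in bte1 hid1 and 149.3 FPKM in WT. ATX1 made up 33.0% of the summed FPKM of ATX1 and ATX2 in bte1 hid1 and 19.3% in WT. AAC2, a mitochondrial ADP/ATP carrier, was at 26.7 FPKM in bte1 hid1 and 9.99 FPKM in WT, far below AAC1 at 673.3 FPKM in bte1 hid1 and 650.6 FPKM in WT. None of HAF01, TAF4, NUC-L1, ATX2 and AAC1 was called.

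Other families differed from this order. PAI1 was already the highest of 3 isomerases, with 27.5 FPKM in bte1 hid1 and 8.04 FPKM in WT, against 3.56 to 4.26 FPKM in bte1 hid1 and 4.15 to 4.16 FPKM in WT for PAI2 and PAI3; these copies are near-identical, so how reads were shared among them is uncertain. Paralogs of MAC5C and RABH1a were called higher as well, MAC5B by 0.55 (edgeR adjusted p = 0.015) and RABH1c by 0.64 (edgeR adjusted p = 0.047) on the log2 scale of the counts. Both SMC6 genes rose, SMC6A by 0.96 (SE 0.14) and SMC6B by 0.55 (SE 0.08) on the log2 scale of the counts. LSM1A fell to 4.63 ± 0.652 FPKM in bte1 hid1, against 19.9 ± 2.47 FPKM in WT, while LSM1B was at 13.4 FPKM in bte1 hid1 and 13.3 FPKM in WT. The counts gave a smaller difference for LSM1A, with means of 6.45 CPM in bte1 hid1 and 16.1 CPM in WT, and why the deposited FPKM differ more was not tested. The families were picked with earlier results known, and no test was made over them.

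**Figure D3:**
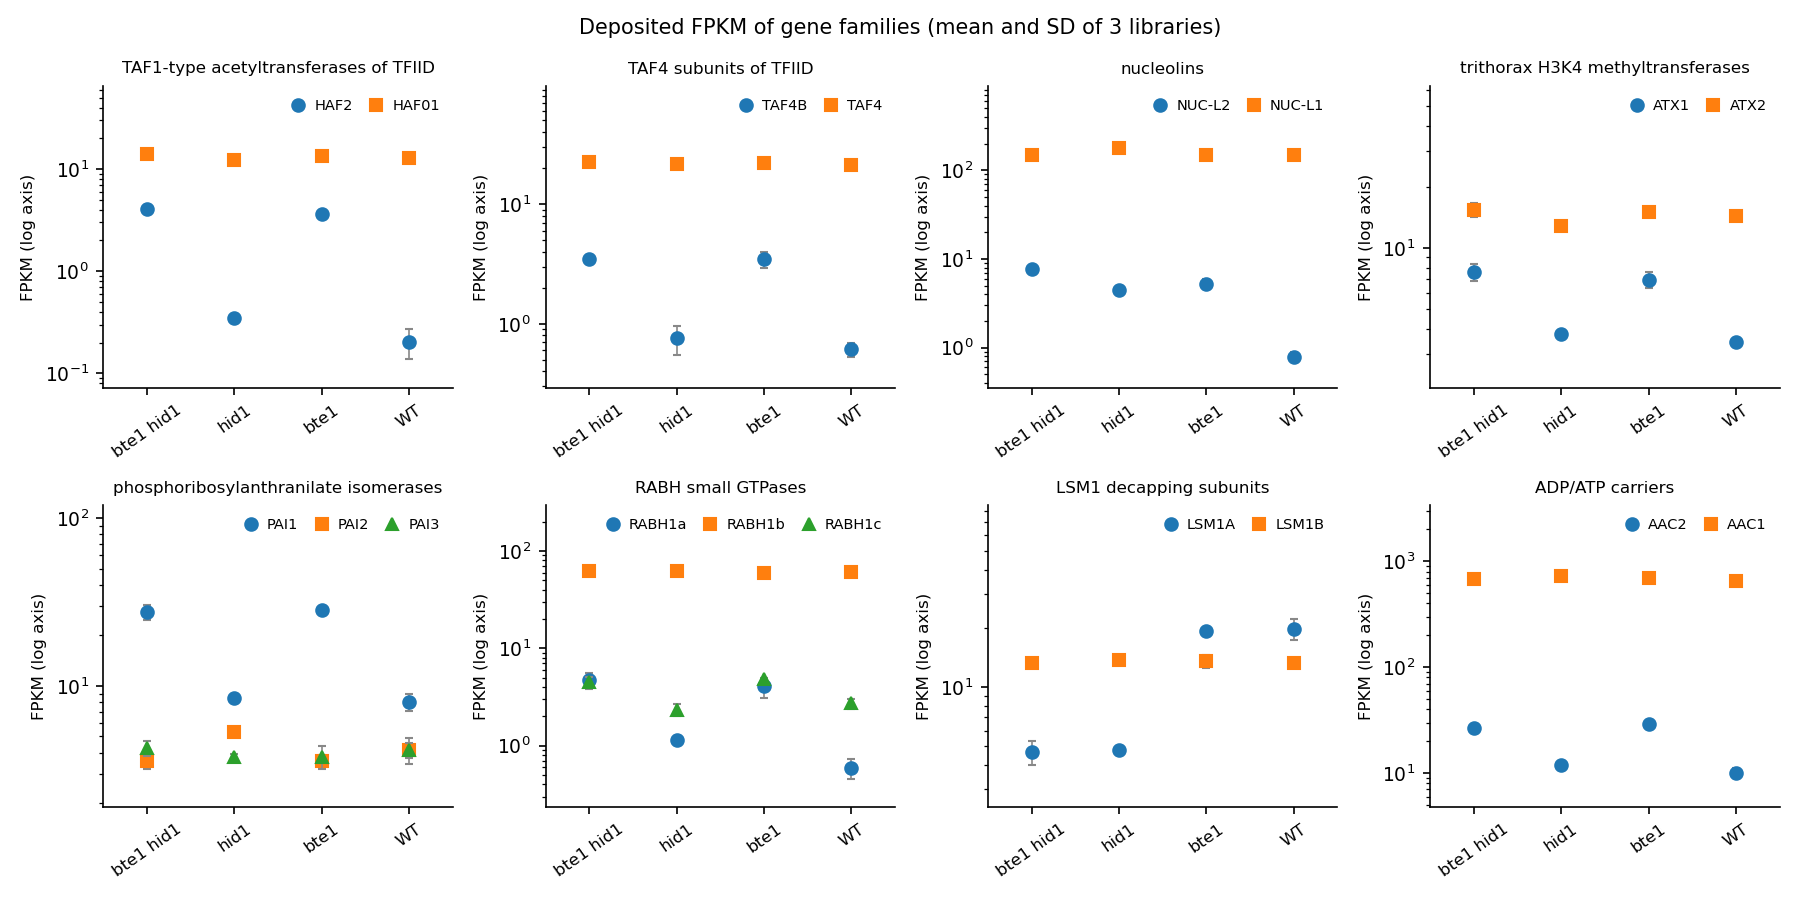
Deposited FPKM on a log axis (mean, with SD as bars, of 3 libraries) for 8 gene families in bte1 hid1, hid1, bte1 and WT. HAF2, TAF4B, NUC-L2, ATX1, RABH1a and AAC2 are higher in bte1 hid1 than in WT and stay below a paralog that was not called, and LSM1A is lower in bte1 hid1 and hid1 than in bte1 and WT.

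Of 22 members of the DREAM complex and the E2F family, all tested, E2FA and RBR1 rose and none fell, where 1.98% of all genes were called higher. The median log2 change over the 22 was 0.02. E2FA, an activating E2F, was at 14.6, 14.1 and 13.2 CPM in bte1 hid1, at 8.15, 10.4 and 8.62 CPM in hid1, at 12.2, 12.6 and 13.8 CPM in bte1 and at 8.65, 9.04 and 8.80 CPM in WT. RBR1, the retinoblastoma protein that binds E2F, was at 71.0, 71.3 and 71.2 CPM in bte1 hid1, at 51.8, 55.6 and 57.1 CPM in hid1, at 73.4, 67.9 and 70.7 CPM in bte1 and at 53.9, 54.3 and 54.3 CPM in WT. Double mutant and bte1 libraries of both genes lay above all hid1 and WT libraries, with log2 changes against WT of 0.66 (SE 0.12, edgeR adjusted p = 0.000985) and 0.39 (SE 0.06, edgeR adjusted p = 6.56e-05). The other activators and repressors were not called, E2FB at -0.07 and E2FC at 0.19, nor were the atypical factors DEL1 (-0.22), DEL2 (0.34) and DEL3 (0.01) or the partners DPA (-0.05) and DPB (0.12). The MYB3R proteins lay between -0.15 and -0.0017, the core subunits ALY1, ALY2 and ALY3 at 0.20, 0.23 and -0.02, MSI1 at -0.13, TSO1 at 0.04 and SOL1 at 0.01. Of the 3 CXC-domain members given by locus, AT4G29000 was at 0.23, AT2G20110 at 0.57 and AT5G25790 at 0.49, none called.

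Genes of DNA replication, which E2F factors are known to activate, were called in 4 of 30 cases, all higher, against 1.98% of all genes. LIG1, the ligase that joins replicated strands, was at 53.6, 55.6 and 56.2 CPM in bte1 hid1 against 35.2, 30.5 and 32.3 CPM in WT (log2 0.76, SE 0.08, edgeR adjusted p = 7.28e-07). ORC3, a subunit of the origin recognition complex, was at 8.27, 7.69 and 7.75 CPM in bte1 hid1 against 5.42, 4.95 and 3.94 CPM in WT (log2 0.73, SE 0.15). TIL1, a polymerase epsilon subunit, rose by 0.46 (SE 0.08) and the sliding clamp PCNA2 by 0.40 (SE 0.10). TIL1 shares 1756 bases with ADT6, itself not called. None of these 4 was called against bte1. Their log2 differences from bte1 were 0.07 for LIG1, 0.12 for ORC3, -0.06 for TIL1 and 0.04 for PCNA2. The median over the list was 0.17, and no replicative histone (0 of 20) was called. Without WT replicate 3 the edgeR adjusted p of ORC3 was 0.0526, and PCNA2 lost its call under each omission of 1 library but that of bte1 hid1 replicate 2 (up to 0.164). In mitosis and cytokinesis 1 of 33 members was called, the kinesin TES, at 9.80, 8.80 and 10.6 CPM in bte1 hid1 against 13.4, 13.1 and 14.1 CPM in WT (log2 -0.47, SE 0.11; edgeR adjusted p = 0.0679 without WT replicate 3 and 0.0929 without bte1 hid1 replicate 2). Of all genes, 0.42% were called lower. None of 12 cell cycle inhibitors was called.

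The octamers TTTCCCGC, TTTGGCGC, TTTGCCGC and TTTCGCGC, were searched on both strands of the 250 bases before each gene start in TAIR10.1 (RefSeq). At least 1 was found in 15 of 428 genes called higher (3.5%), in 0 of 91 called lower and in 322 of all 21701 tested genes with such a promoter (1.48%). The holders called higher included ORC3, RBR1, AAC2, the repair helicase MCM8 and SMC6A, a subunit of the SMC5/6 complex of DNA repair. A match is only a description of the letters. The promoters of ORC3 (chr5:5474116-5474365, plus strand), SMC6A (chr5:2422533-2422782, plus strand) and AAC2 (chr5:4335022-4335271, plus strand) are printed as called risers that hold an octamer, in capitals. Those of HAF2 (chr3:6575614-6575863, minus strand) and NUC-L2 (chr3:6407947-6408196, minus strand) are printed as the strongest risers of the TFIID and nucleolus lists, and no octamer was found in them.
ORC3: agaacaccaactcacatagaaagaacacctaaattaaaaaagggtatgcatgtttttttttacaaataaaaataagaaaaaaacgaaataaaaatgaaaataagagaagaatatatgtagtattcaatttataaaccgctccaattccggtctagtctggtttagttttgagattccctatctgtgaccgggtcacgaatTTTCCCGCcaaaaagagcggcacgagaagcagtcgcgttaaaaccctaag
SMC6A: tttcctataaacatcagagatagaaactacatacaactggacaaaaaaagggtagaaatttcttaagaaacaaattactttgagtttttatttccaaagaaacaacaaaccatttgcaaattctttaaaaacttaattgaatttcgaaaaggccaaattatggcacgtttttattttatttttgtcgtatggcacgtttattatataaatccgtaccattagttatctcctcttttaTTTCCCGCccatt
AAC2: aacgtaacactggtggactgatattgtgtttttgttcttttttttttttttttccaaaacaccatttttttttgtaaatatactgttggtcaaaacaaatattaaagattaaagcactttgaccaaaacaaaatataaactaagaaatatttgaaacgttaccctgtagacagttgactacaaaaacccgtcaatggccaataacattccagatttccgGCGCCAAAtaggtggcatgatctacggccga
HAF2: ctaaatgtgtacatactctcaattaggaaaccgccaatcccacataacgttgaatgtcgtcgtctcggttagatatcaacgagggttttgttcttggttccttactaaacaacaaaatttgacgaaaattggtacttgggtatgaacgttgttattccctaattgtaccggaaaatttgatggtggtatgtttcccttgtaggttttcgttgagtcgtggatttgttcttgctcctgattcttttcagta
NUC-L2: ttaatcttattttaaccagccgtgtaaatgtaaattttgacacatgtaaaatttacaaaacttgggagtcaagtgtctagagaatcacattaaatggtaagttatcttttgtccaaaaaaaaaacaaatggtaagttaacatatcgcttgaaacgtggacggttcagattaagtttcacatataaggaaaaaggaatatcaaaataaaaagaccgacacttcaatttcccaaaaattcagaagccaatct
The octamer of ORC3 starts at base -50 and that of SMC6A at base -13 from the gene start, both as TTTCCCGC on the gene's own strand. In AAC2 the match starts at base -31 and is TTTGGCGC read on the opposite strand. The values of AAC2 were 39.7, 39.1 and 38.5 CPM in bte1 hid1 against 15.8, 16.0 and 13.3 CPM in WT (log2 1.38, SE 0.10), and those of SMC6A 8.05, 7.91 and 7.10 CPM in bte1 hid1 against 4.03, 3.96 and 3.85 CPM in WT. In bte1, AAC2 averaged 43.1 CPM and SMC6A 6.66 CPM, and the double mutant was not called against bte1 for either gene. Another motif, the MYB-binding core AACGG, was found in 27.1% of promoters called higher, 20.9% of those called lower and 21.6% of all. The cell cycle homology letters TTTGAA or TTCGAA gave 41.4%, 46.2% and 43.4% in the same order, and the telo-box AAACCCTA gave 5.61%, 2.2% and 3.65%.

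Of 26 DNA damage response and repair genes, 4 rose and none fell, where 1.98% of all genes were called higher, and the median log2 change was 0.16. NAC044, a transcription factor that acts below the damage regulator SOG1, was at 2.51, 2.4 and 3.27 CPM in bte1 hid1, at 10.7, 9.83 and 11.4 CPM in hid1, at 0.805, 0.558 and 0.820 CPM in bte1 and at 1.05, 1.30 and 0.4815 CPM in WT. GMI1, a gene of repair by recombination, was at 14.6, 13.2 and 17.2 CPM in bte1 hid1, at 30.3, 29.3 and 26.4 CPM in hid1, at 9.62, 10.6 and 11.2 CPM in bte1 and at 10.3, 10.6 and 7.48 CPM in WT. Both were highest in hid1, and the double mutant stood between hid1 and WT without overlap with either. NAC044 was called against WT (log2 1.52, SE 0.25), against hid1 (-1.96, SE 0.20) and against bte1 (1.89, SE 0.26); GMI1 was called against WT (0.67, SE 0.12) and hid1 (-0.94, SE 0.12). RAD5A, of replication-fork repair, had the other order, with a log2 change of 0.38 against WT and of 0.47 against hid1. Its call against WT was lost without WT replicate 1, WT replicate 3 or bte1 hid1 replicate 1 (edgeR adjusted p up to 0.128). CMT3, a methyltransferase of non-CG DNA methylation, was the 1 called gene of 22 in the DNA methylation list, at 40.5, 42.9 and 38.3 CPM in bte1 hid1 against 31.7, 28.5 and 23.8 CPM in WT. It averaged 43.7 CPM in bte1 and 37.4 CPM in hid1, and the double mutant was called against neither.

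Of the 667 genes held by the 31 lists and tested, 24 were called higher and 3 lower, 4.05% against 2.4% of all genes. The lists were chosen with earlier results known, so these shares are a description. Heat shock had 3 called of 21, all higher: HSP70, the chaperone HSP90.1 (log2 0.70, SE 0.12) and the heat shock factor HSFA1E (0.75, SE 0.13). Their log2 differences from bte1 were -0.03, -0.16 and 0.19 in the same order, none called. HSP70 has near relatives that were not called against WT, HSP70B at 0.05 and HSP70T-2 at 0.07. A single member was called in each of 5 further lists: the salicylic acid exporter EDS5 (0.50) of 22, the jasmonate-induced storage protein VSP1 (1.44) of 23, the abscisic acid factor ABI5 (0.89) of 22, the auxin-conjugating GH3.3 (-0.62) of 27 and the wall enzyme XTH4 (-0.42) of 18. All 5 sat near the threshold, with edgeR adjusted p between 0.0268 and 0.0493, and all lost their call under 4 to 6 of the 6 omissions of 1 library (up to 0.268 for ABI5).

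In 17 lists no member was called. All 43 nuclear photosystem, antenna and Rubisco genes had a negative log2 change, between -0.53 and -0.05 with a median of -0.27 (-0.27 with RLE factors), and in 34 of them the bte1 hid1 libraries lay wholly below the WT libraries, as they did for 8.59% of all genes. None passed the test, and 19 had an unadjusted p under 0.05. LHCB2.2, an antenna protein, gave the largest difference, at 1380 CPM in bte1 hid1 and 1989 CPM in WT (adjusted p = 0.264). The medians in the 3 double mutant libraries against the WT mean were -0.22, -0.35 and -0.23. The 4 mesophyll markers summed to 18300, 17600 and 20000.0 CPM in bte1 hid1 against 22800, 22400 and 21200 CPM in WT; they are photosynthesis genes themselves, and fewer such cells and less RNA per cell cannot be told apart in whole seedlings. Flavonoid and anthocyanin genes had a median of -0.39, with 17 of 19 negative and 4 at an unadjusted p under 0.05; by library the median was -0.52, -0.15 and -0.18, so that replicate 1 stood lowest.

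Root cell type genes had a median of 0.33, with 14 of 17 positive and none called. RSL4, a root hair regulator, was nearest to a call at 2.83 CPM in bte1 hid1 and 1.78 CPM in WT (adjusted p = 0.0605). The 5 root markers summed to between 99.6 and 108 CPM in bte1 hid1 and to between 90.0 and 93.2 CPM in WT, and their part in the list's median was not tested. Seed maturation genes had a median of -0.56 at levels near 0, none with an unadjusted p under 0.05. The other lists without a call had medians between -0.15 and 0.16: chlorophyll synthesis (-0.15), shoot meristem (-0.13), cell cycle inhibitors (-0.09), nitrate (-0.08), flowering (-0.07), the circadian clock (-0.02), light signalling (-0.02, of 38 genes), Polycomb (-0.02), replicative histones (-0.01), gibberellin and brassinosteroid (0.01), glucosinolates (0.08), cold (0.12) and iron deficiency (0.16).

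**Figure D4:**
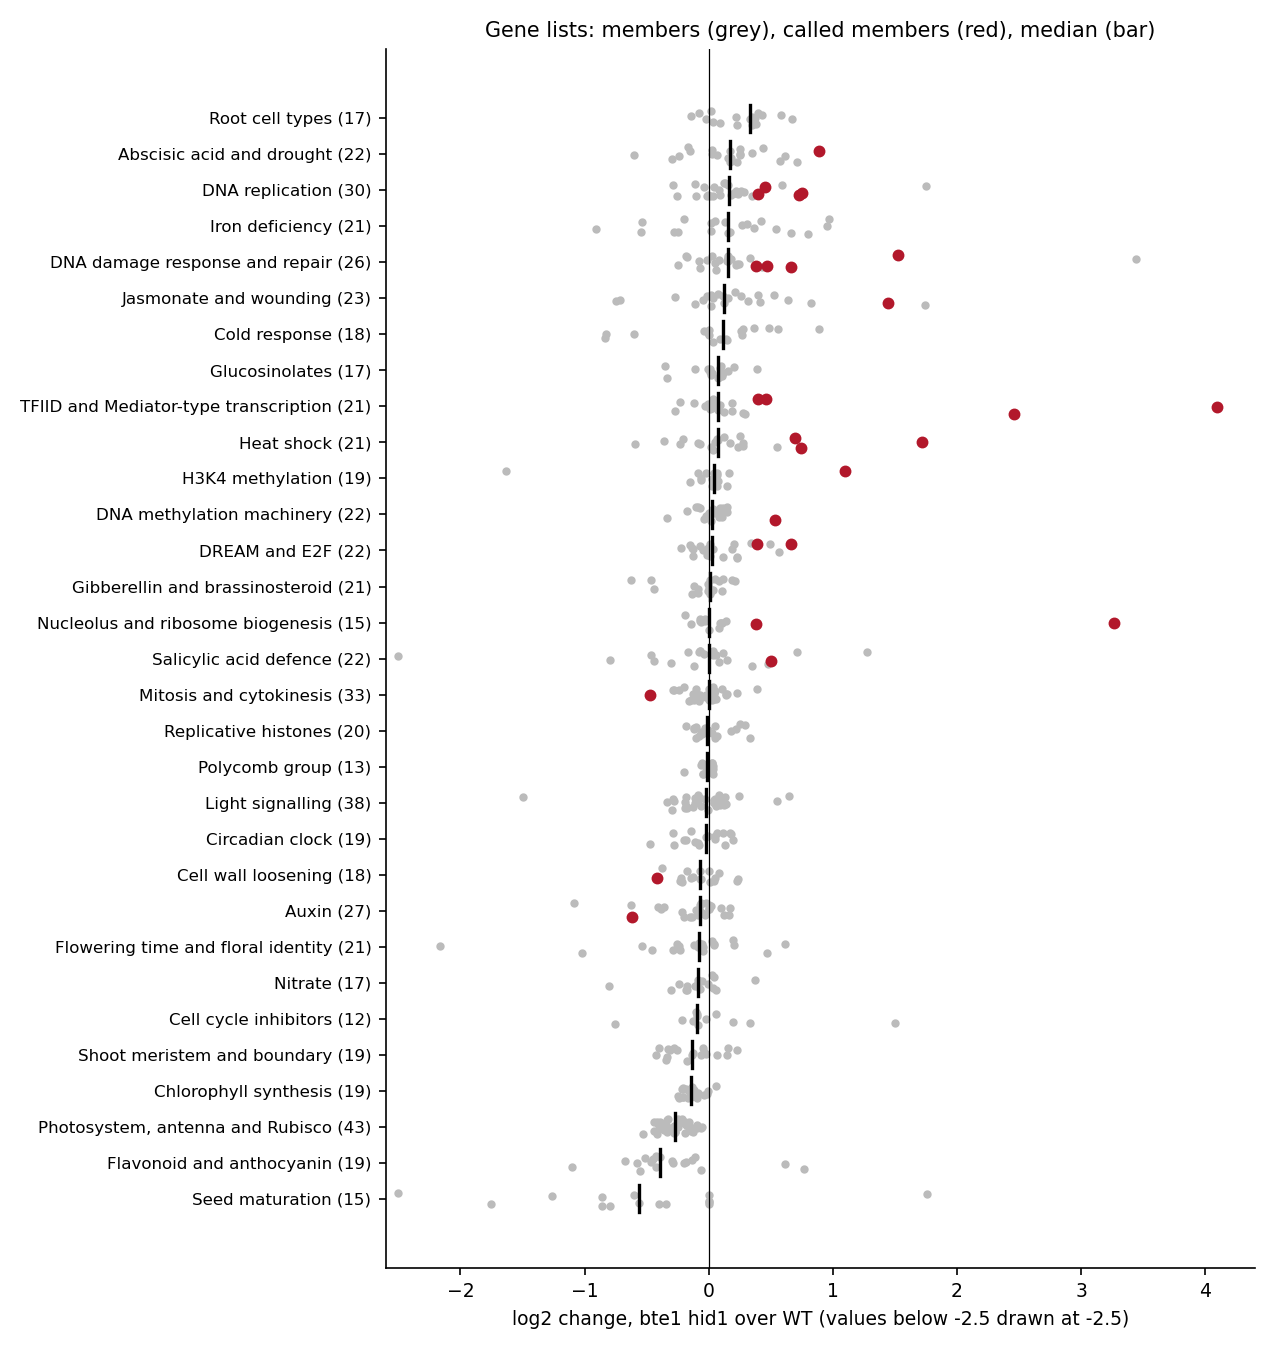
Log2 change in bte1 hid1 over WT of each tested member of the 31 gene lists (number of members in brackets), with called members in red, others in grey and the list median as a black bar. The list drawn as TFIID and Mediator-type transcription holds no Mediator subunit. Photosystem genes lie wholly left of 0 without a called member, and the farthest red points are HAF2, NUC-L2 and TAF4B; 2 members below -2.5 are drawn at that value.

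Direct comparisons with the single mutants show where the double mutant stood. Against bte1, 32 genes were higher and 17 lower in bte1 hid1 (0.224% of genes tested, with 0.146% higher and 0.0776% lower), 26 of them by at least 2-fold. Against hid1, 948 were higher and 680 lower (7.43%, with 4.33% higher and 3.11% lower), 323 by at least 2-fold. These comparisons share the bte1 hid1 libraries, so their counts are not independent. Without hid1 replicate 3 the count against hid1 was 814, and without bte1 hid1 replicate 1 it was 891. DESeq2 called 90 genes against bte1, and a fit on those 2 genotypes alone called 74. With the replicate number as a block in that fit, 582 were called, 224 higher and 358 lower. Whether the numbers pair samples is not settled, so the count against bte1 depends on the model.

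The smallest adjusted p against bte1 was that of a locus without a symbol, AT1G51610, at 26.7, 25.3 and 24.7 CPM in bte1 hid1, at 31.8, 31.2 and 29.8 CPM in hid1, at 9.26, 8.41 and 8.76 CPM in bte1 and at 27.0, 28.9 and 27.4 CPM in WT. There bte1 alone was low, and the double mutant overlapped with none of its libraries (log2 1.53, SE 0.09, edgeR adjusted p = 2.74e-10). Of the 5 genes with a symbol in the reference and the smallest adjusted p against bte1, LSM1A, QQS, SADHU3-2 and HEI10 are described above, and the fifth was ARF10, an auxin response factor targeted by miR160. ARF10 was at 45.8, 45.8 and 45.9 CPM in bte1 hid1, at 20.7, 25.8 and 24.5 CPM in hid1, at 26.0, 25.3 and 25.7 CPM in bte1 and at 25.7, 26.7 and 29.2 CPM in WT. Its log2 difference was 0.84 against bte1 (SE 0.09, edgeR adjusted p = 4.07e-06), 0.95 against hid1 and 0.75 against WT. The double mutant thus stood alone above 3 like levels. Among genes with a symbol in the reference, the 5 with the smallest adjusted p against hid1 were HAF2, HSP70, ABCA7, PAI1 and AAS, all higher in the double mutant, with log2 differences between 1.40 and 3.45.

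Mitosis and cytokinesis genes gave the most calls of any list against hid1. In bte1 hid1, 18 of 33 were lower than in hid1 and none higher (median log2 difference -0.45), where 3.11% of all genes were called lower. The mitotic kinesin HIK averaged 27.6 CPM in bte1 hid1, 43.0 CPM in hid1, 27.2 CPM in bte1 and 28.1 CPM in WT (-0.64 against hid1, edgeR adjusted p = 1.36e-05), and the Aurora kinase AUR2 averaged 7.04 CPM in bte1 hid1, 11.3 CPM in hid1, 8.35 CPM in bte1 and 8.06 CPM in WT (-0.68). DNA damage genes were lower in 5 of 26 cases and higher in 2, root cell type genes higher in 7 of 17 and lower in 1. Of all genes, 4.33% were called higher against hid1 and 3.11% lower. None of the 43 photosystem genes was called against hid1 or against bte1. The seed storage sums given above were highest in hid1 replicate 2 (85.9 CPM) and also raised in hid1 replicate 3 (12.9 CPM). Without hid1 replicate 2, 1161 genes were called against hid1, and without hid1 replicate 3 it was 814.

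A few genes were called in bte1 hid1 against WT, hid1 and bte1 alike, and since the 3 comparisons share the double mutant libraries these 13 genes are a description. HIL1 was at 19.8, 22.8 and 18.6 CPM in bte1 hid1, at 3.99, 3.54 and 4.13 CPM in hid1, at 8.64, 8.23 and 10.7 CPM in bte1 and at 0.714, 0.854 and 0.875 CPM in WT. From high to low the order was double mutant, bte1, hid1 and WT, without overlap, and AT2G35743, a pseudogene of AT2G35750, had nearly the same values, so that reads of the 2 features may be shared. AT3G02420, annotated as a dihydroflavonol reductase-like protein, was at 52.3, 52.9 and 47.7 CPM in bte1 hid1, at 24.5, 27.5 and 26.4 CPM in hid1, at 25.5, 25.2 and 25.3 CPM in bte1 and at 24.4, 24.6 and 24.6 CPM in WT. The pseudogene AT5G14840 had the same order, at 61.8, 61.6 and 54.6 CPM in bte1 hid1 and between 30.2 and 35.4 CPM in the 9 hid1, bte1 and WT libraries. AT3G42090.1 and AT3G42100.1, whose loci are annotated as pseudogenes, had 69 and 64 reads in bte1 hid1, at most 0.175 CPM in any hid1 library and none in bte1 or WT. The rest were AT3G01345, ARF10, QQS, NAC044, AT1G01450, AT4G22517 and ACC2, the plastid acetyl-CoA carboxylase, which averaged 21.99 CPM in bte1 hid1, 48.8 CPM in hid1, 12.7 CPM in bte1 and 15.4 CPM in WT.

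**Figure D5:**
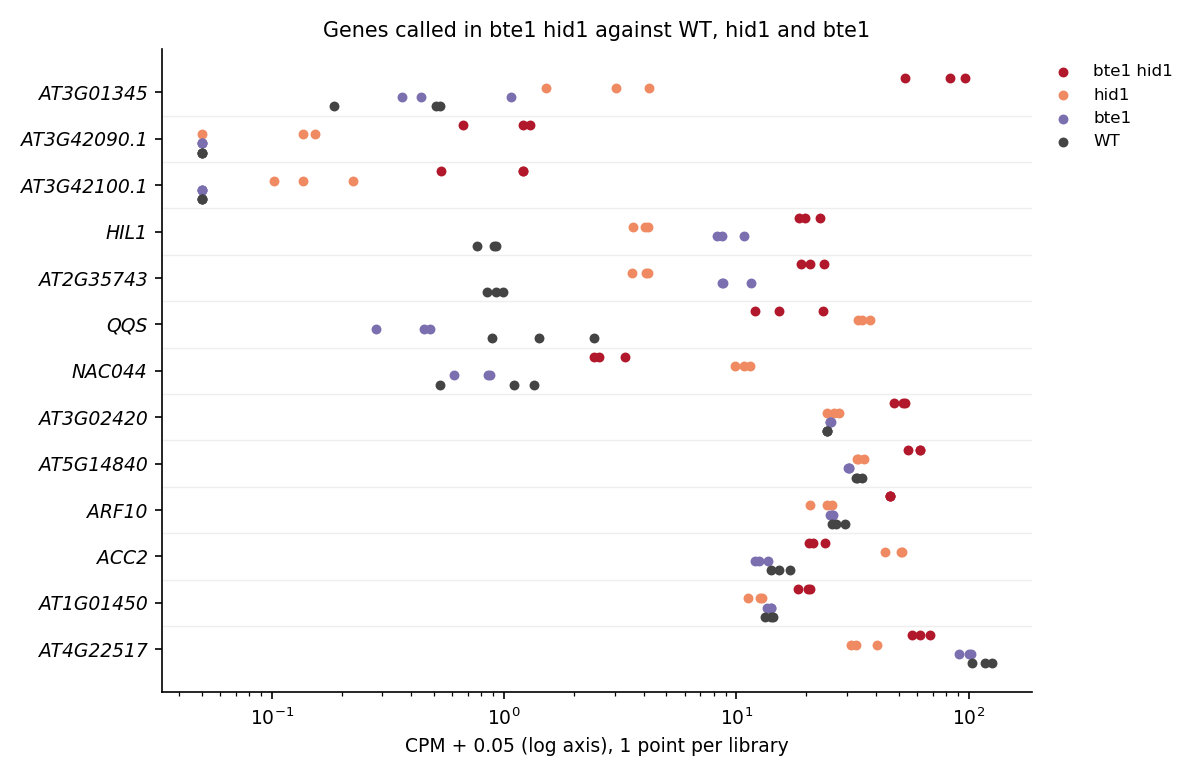
Level in each library, as CPM plus 0.05 on a log axis, of the 13 genes called in bte1 hid1 against WT, hid1 and bte1. ARF10, AT3G02420 and AT5G14840 set the double mutant apart above 3 genotypes at like levels, whereas for QQS, NAC044, ACC2 and AT4G22517 it lies between hid1 and the other 2.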

How the data were processed

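Poly(A) RNA of 24 libraries was sequenced, and per the submitters' processing notes the tools were fastp, HISAT2 2.1.0 and SAMtools 1.6, on TAIR10. The counting tool and its strand are not given in the sources used here. The deposited tables hold the authors' raw counts for 33612 features and their FPKM values, which were used for paralog levels alone. Symbols were taken from RefSeq TAIR10.1, in which 32843 features were found; coordinates are printed for promoters only.

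All 24 libraries entered 1 robust quasi-likelihood model by genotype (edgeR 4.0.16, R 4.3.3), which pools the spread. Normalisation was by TMM (0.922 to 1.03), filterByExpr removed 11715 features, and p-values were adjusted by Benjamini-Hochberg over 21897 genes in each of 3 comparisons. The biological coefficient of variation was 0.106, and totals were 19309154 to 23912716 reads in the 12 libraries compared. Libraries of a genotype differed by more than sampling noise (chi-square per degree of freedom 4.36 to 9.91). The pipeline was tested on simulated data.

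The comparison, gene lists, paralog families and promoter set were chosen with earlier results of these data known. Named genes are HID1, HIL1 and the DREAM and E2F members; the 12 largest log2 changes each way among called genes with a symbol, at least 1 CPM where higher and no overlap of libraries; up to 4 called members of each list, with paralogs; and the 5 genes with a symbol and the smallest adjusted p against each single mutant. Alternatives were RLE factors, no filter, DESeq2 1.42.0, fewer libraries, a replicate block and leaving out each library. A called member of a list is not reported here.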

Additional observations from a re-analysis of the deposited data

How the results depend on the processing

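Against WT the total of 526 stayed within 1.5 times under all alternatives: 517 with RLE factors, 499 without the filter, 548 with 15 libraries, 493 with the 2 genotypes alone, 613 with DESeq2, and 353 to 398 without 1 of the 6 libraries. Its 2 directions did not do so alike: without 1 library, 296 to 349 genes were called higher, of 434, and 49 to 68 lower, of 92. Against hid1 the count of 1628 ran from 814 to 1161 without 1 library and was 1970 with DESeq2. Against bte1 the count of 49 was 90 with DESeq2, 74 with the 2 genotypes alone and 35 to 67 without 1 library; the cause was not tested. No named gene changed direction while called. With the replicate number as a block and the 2 genotypes alone, 636 genes were called against WT (459 higher, 177 lower), 2249 against hid1 and 582 against bte1 (224 higher, 358 lower). Replicates of 1 number deviated together weakly (correlations of -0.0595 to 0.244 between bte1 hid1 and WT, -0.0152 to 0.0801 with hid1 and 0.0855 to 0.163 with bte1). In the same order, 2 of 3, 2 of 3 and 3 of 3 bte1 hid1 libraries correlated best with their own number. The main fit did not pair samples by number. Whether the numbers pair samples is not settled by these values, least of all against bte1, where the block changed the count most. Among the 94 named features, the block ended the call of 8, the fit on 2 genotypes of 11 and the 15-library fit of 6. With 3 libraries per genotype, small shifts such as those of photosystem genes can miss the threshold.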
